A study of Mus musculus with 3 samples.

Results

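The genes described here are 29 genes of the neuroectoderm and of neural progenitors, listed by name, and every probe set of the array that the platform annotation pairs with them. They were read as 75 of 45101 probe sets, and as 29 of the 18193 genes that the annotation names singly. Of the 29, 19 had a value above the floor, the median of all values in the table at a log2 value of 3.44, on at least 1 array. That was 65.5% of them, against 63.7% of all 18193 genes. The other 10 lay below the floor on every array: Sox1, Zic1, Zfp521, Lhx2, Pax3, Nkx6-1, Olig2, Neurog2, Fabp7 and Map2. The cells were of R1, an established line of mouse embryonic stem (ES) cells kept undifferentiated, and each of 3 conditions was read on 1 Affymetrix array. They were left untreated (no duration is labelled), or received 20 ng/ml BMP4 for 4 h, or 100 ng/ml noggin for 4 h. No genetic change is labelled for any group. With 1 array a condition there is no replicate error, so no test was made, the number of arrays limits the precision, and every difference is a size on these arrays. Values are log2 expression units, in which a difference of 1 is 2-fold.

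BMPs are secreted signals that hold early ectoderm back from a neural fate, and antagonists such as noggin, by keeping BMPs off their receptors, permit neural induction in the embryo. Neuroectoderm then switches on SoxB1 and other patterning factors, keeps its progenitors dividing through Notch signalling, and turns to neurogenesis under proneural basic helix-loop-helix factors. Id proteins, the best known BMP targets, hold those proneural factors inactive. The comparison with noggin asks whether blocking BMP signals for 4 h moved these genes in undifferentiated cells, and the comparison with BMP4 asks the same of added ligand.

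The promoter sequences below show what lies just upstream of the genes on which the results turn most. RefSeq promoter entries (build GRCm38.p6) were found by symbol for 25 of the 29 genes, and the 250 bases before the start were searched on both strands for the SMAD-binding GC box GGCGCC, the SMAD palindrome GTCTAGAC, the E-boxes CAGCTG and CAGGTG, and TGGGAA, the core of the site of the Notch effector RBPJ. Trnp1 is shown because it had the lowest noggin difference, and Sox4 because its probe sets above the floor were all lower with noggin. Hes5, a Notch target, is shown because it held the most GGCGCC matches, 4, and its probe set above the floor did not differ between arrays. Each promoter is written 5′ to 3′ on the strand of its gene, with matches in capitals. The Trnp1 stretch is chr4:133498551-133498800 on the minus strand, that of Sox4 chr13:28953700-28953949 on the minus strand, and that of Hes5 chr4:154960673-154960922 on the plus strand.
Trnp1: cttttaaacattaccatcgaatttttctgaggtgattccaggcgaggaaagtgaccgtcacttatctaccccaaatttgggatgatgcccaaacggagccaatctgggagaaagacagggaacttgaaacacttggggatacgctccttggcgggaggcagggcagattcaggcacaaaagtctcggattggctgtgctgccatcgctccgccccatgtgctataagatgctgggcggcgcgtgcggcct
Sox4: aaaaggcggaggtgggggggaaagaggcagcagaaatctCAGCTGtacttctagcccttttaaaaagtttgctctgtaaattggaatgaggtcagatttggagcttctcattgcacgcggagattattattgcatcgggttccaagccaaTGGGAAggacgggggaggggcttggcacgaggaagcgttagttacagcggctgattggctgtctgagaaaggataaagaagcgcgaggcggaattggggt
Hes5: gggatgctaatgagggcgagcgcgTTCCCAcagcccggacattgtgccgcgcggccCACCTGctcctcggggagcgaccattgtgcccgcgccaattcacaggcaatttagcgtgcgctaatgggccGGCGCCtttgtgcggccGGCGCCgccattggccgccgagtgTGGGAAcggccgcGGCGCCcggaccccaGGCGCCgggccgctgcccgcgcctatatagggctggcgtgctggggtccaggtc

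Of the 25 genes with a promoter entry, GGCGCC was found in 7 (28%), against 10.8% of all 27025 genes with an entry. GTCTAGAC was found in 0 of 25, against 0.200%. CAGCTG was found in 3 (12%, against 14.7%), CAGGTG in 2 (8%, against 19.4%) and TGGGAA in 6 (24%, against 24.1%). None of the motifs contains another, and matches that overlapped at their ends were counted for each. The median GC content of the upstream stretches was 64.6% for these genes and 52.4% for all entries, and GGCGCC is made of G and C alone, so the part of base composition in its share was not tested. The 7 genes with GGCGCC were Dll1, Hes5, Lhx2, Neurog1, Nkx6-1, Olig2 and Zic1. Of these, 4 lay below the floor, and the other 3 had equal values on all 3 arrays by their probe sets of highest mean. Trnp1 held no match to any of the motifs in this window. A match is a string of letters and not a shown binding site.

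The state of the cells and of the treatments was read from other genes. All 10 of 10 pluripotency markers lay above the floor, and Pou5f1 measured 11.31 untreated, 11.53 with BMP4 and 11.31 with noggin. Among 6 defining neuroectoderm markers, Sox1 and Zic1 were below the floor on every array. Sox3, Pax6, Nes and Hes5 were above it, as were 63.7% of all genes. The BMP target Id2 measured 4.80 untreated, 8.90 with BMP4 and 4.31 with noggin. Id3 differed from untreated by 3.58 with BMP4 and −0.26 with noggin, and Id1 by 2.76 and −0.19. Probe sets of the same gene, over 5139 genes with at least 2 above the floor, scattered around their gene's mean difference with an SD of 0.11 in the noggin comparison and 0.13 in the BMP4 comparison, both against untreated. For the 6 neural genes with at least 2 such probe sets the SD was larger, 0.14 and 0.17. The 24 poly-A spike probe sets, for transcripts added to the RNA before labelling, had a median difference of −0.18 with noggin and −0.63 with BMP4. At the low end of the noggin array values were smaller, with a 5th percentile of 1.60 against 1.82 on both other arrays. Repeated values were common: 71.6% of probe sets had an untreated value equal to 6 decimals to that of another probe set, and 14 of the 19 measured neural genes had such a value.

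**Figure D1:**
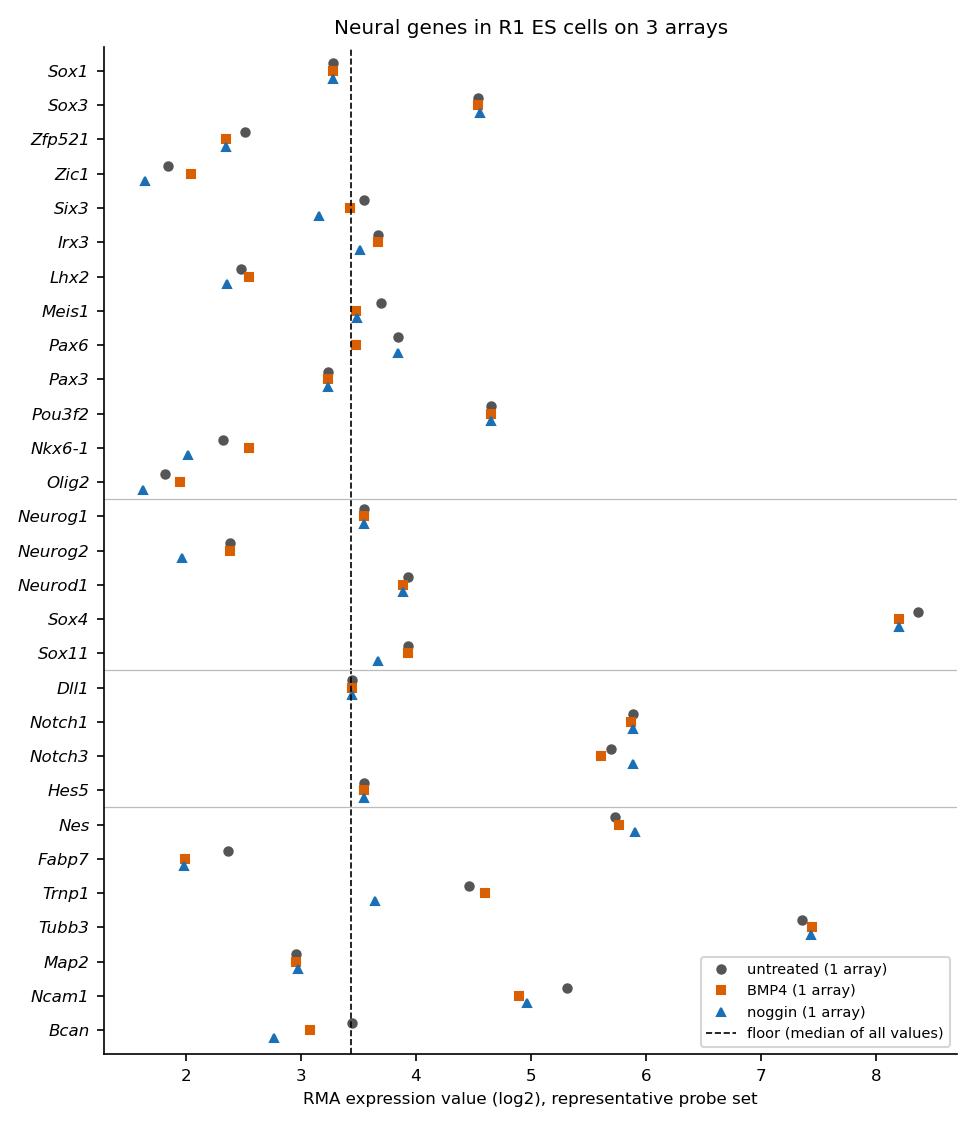
Log2 expression value (horizontal axis) of the representative probe set of each of the 29 neural genes on the untreated (circle), BMP4 (square) and noggin (triangle) arrays, 1 array each. Grey lines separate early factors, proneural and SoxC factors, Notch genes, and structural genes; the dashed line is the floor of 3.44, and 10 genes lie left of it on every array. Levels of different genes come from different probes and are not comparable.

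With noggin, the neural genes as a group were not higher. Of the 19 measured, 4 were above 0, 9 below 0 and 6 exactly equal, with a median difference of 0.00. Of the 9 below 0, Bcan and Six3 passed the floor on the untreated array alone. The mean over a gene's probe sets gave 5 above and 4 below among the 10 genes it kept. Loess gave 10 above and 9 below, since its curve turns exact zeros into small values. Among all 11594 measured genes, 26.8% were above 0, 36.1% below 0 and 37.0% equal, with a median of 0.00 too. By shares, 21.1% of the neural genes were above 0 and 47.4% below, which in counts of 19 genes is near that background. With so many exact ties, equal medians of 0 separate little. The mean difference was −0.14 for the 19, Trnp1 and Bcan included, and −0.011 for all measured genes. At least 1.5-fold lower were 2 of the 19, Trnp1 and Bcan, against 0.069% of all measured genes (8 genes), and 0 of 19 were 1.5-fold higher, against 0.00863% (1 gene). Nothing is read from the 2, because both were on the list with their noggin values known, and Bcan counts as measured through the untreated array alone. Without them 0 of 17 passed 1.5-fold, which follows from leaving out the only 2 that did. In whole-culture RNA, fewer cells of a type and less RNA per cell cannot be told apart.

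Trnp1 encodes a nuclear protein that regulates the expansion of neural progenitors and the folding of the cortex. It measured 4.47 untreated, 4.60 with BMP4 and 3.65 with noggin. The noggin array alone was low, at a difference of −0.82, or 1.76-fold, which was the lowest of all 11594 measured genes. BMP4 minus untreated was 0.14, and 619 of the measured genes were as high or higher. BMP4 minus noggin was 0.96, or 1.94-fold, rank 16 from the highest. Its other probe set was below the floor on all arrays, at 2.59 untreated, 2.70 with BMP4 and 2.59 with noggin, so the difference rests on 1 probe set. The untreated value behind the difference was common to 92 probe sets of the array.

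Bcan, brevican, a proteoglycan of the brain extracellular matrix, measured 3.45 untreated, 3.08 with BMP4 and 2.77 with noggin. It passed the floor on the untreated array alone, by less than 0.01, and was lower on both treated arrays, with differences of −0.37 and −0.68. The other Bcan probe set read 2.45 on every array. Dll1 had the same untreated value as Bcan and also passed so narrowly, while Sox1 at 3.28 and Pax3 at 3.24 lay nearest below the floor.

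Among the early transcription factors of neural tissue, 6 of 13 were measured, and with noggin 1 was above 0, 3 below and 2 equal. Counts in this and the next groups stand against 26.8% above, 36.1% below and 37.0% equal among all measured genes. Sox3, a SoxB1 factor of neural progenitors, measured 4.54 untreated, 4.54 with BMP4 and 4.56 with noggin. Its other probe set above the floor measured 4.04, 4.16 and 4.32 in that order, so noggin was the highest array by both, with differences of 0.02 and 0.27. Six3, a factor of forebrain and eye, measured 3.55 untreated, 3.43 with BMP4 and 3.16 with noggin. Six3 was above the floor on the untreated array alone, and its noggin difference was −0.39. Of its other probe sets, both below the floor, the differences were 0.00 and −0.42.

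Meis1, a TALE homeobox factor, measured 3.70 untreated, 3.48 with BMP4 and 3.49 with noggin, so both treated arrays were low, with differences of −0.22 and −0.21. Irx3, an Iroquois factor of the neural tube, measured 3.67 untreated and with BMP4 and 3.51 with noggin, a difference of −0.16. Pax6, a factor of the dorsal forebrain, eye and spinal cord, was at 3.84 untreated and with noggin and at 3.48 with BMP4, the low array here. Its BMP4 difference was −0.37, and 87 of the measured genes (0.750%) were as low or lower, but the 4 other Pax6 probe sets, all below the floor, gave between −0.03 and 0.00. The POU factor gene Pou3f2, also called Brn2, read 4.65 on all 3 arrays, an untreated value that 84 probe sets held. Its other probe sets, both below the floor, gave −0.17 and −0.54 with noggin and 0.12 and 0.00 with BMP4.

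The proneural and SoxC group had 4 of 5 members measured. Of these, 3 were below 0 with noggin and 1 was equal, against 36.1% and 37.0% of all measured genes. Sox4, a SoxC factor of young neurons that many other tissues also express, measured 8.36 untreated, 8.20 with BMP4 and 8.20 with noggin. Both treated arrays were lower by the same amount, a difference of −0.17, and with noggin 5.71% of measured genes were as low or lower. All 6 Sox4 probe sets above the floor were below 0 with noggin, from −0.20 to −0.01, whereas with BMP4 they ran from −0.17 to 0.39. Sox11, the closest relative of Sox4 on the list, measured 3.93 untreated and with BMP4 and 3.67 with noggin. Its noggin difference was −0.26, where 2.04% of measured genes were as low or lower, and its 5 other probe sets, all below the floor, gave between −0.23 and 0.00.

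Neurod1, a factor of neuronal differentiation, measured 3.93 untreated and 3.89 on both treated arrays. Neurog1, a proneural gene, was equal at 3.55 throughout, an untreated value that 110 probe sets held. Its other probe set, below the floor, gave −0.50 with noggin and 0.00 with BMP4. Neurog2, the other proneural gene of that family on the list, was below the floor at 2.39 untreated, 2.39 with BMP4 and 1.96 with noggin. Of all genes with untreated values from 2 to 2.5, 59.3% were below 0 with noggin, with a median of −0.04.

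In the Notch pathway all 4 listed genes were measured, and with noggin 1 was above 0 and 3 were equal. Notch3, a receptor, measured 5.70 untreated, 5.61 with BMP4 and 5.89 with noggin. Noggin was the highest array and BMP4 the lowest, and the noggin difference was 0.19, where 2.42% of measured genes were as high or higher. The other Notch3 probe set gave 0.20 with noggin and 0.04 with BMP4. Notch1, the receptor of neural progenitors and many other cells, measured 5.88 untreated, 5.87 with BMP4 and 5.88 with noggin. Its other probe set measured 5.37, 5.43 and 5.64, a noggin difference of 0.27, so the probe sets of Notch1 disagree on size. The ligand gene Dll1 was equal at 3.45 and the target gene Hes5 at 3.55 on all arrays, untreated values that 210 and 209 probe sets held. The other Hes5 probe set, below the floor, gave −0.01 with noggin and 0.07 with BMP4.

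Among structural and effector genes, 5 of 7 were measured, with 2 above 0 and 3 below with noggin. The 3 below were Ncam1, Trnp1 and Bcan, and nothing is read from the last 2, which were listed with their noggin values known. Nes encodes nestin, the intermediate filament protein of neural progenitors, and measured 5.73 untreated, 5.76 with BMP4 and 5.90 with noggin. Noggin was again the highest array, with a difference of 0.17, and the other probe set above the floor gave 0.22, at 3.76, 3.76 and 3.99. The remaining Nes probe set, below the floor, gave −0.31. Tubb3, the neuronal beta-tubulin, measured 7.36 untreated, 7.44 with BMP4 and 7.43 with noggin, so both treated arrays were higher, by 0.09 and 0.07.

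Ncam1, the neural cell adhesion molecule, measured 5.31 untreated, 4.90 with BMP4 and 4.96 with noggin. Both treated arrays were lower, at −0.42 and −0.35, and 0.431% and 0.776% of measured genes were as low. The other Ncam1 probe sets above the floor gave 0.13 and 0.00 with noggin and −0.07 and 0.00 with BMP4. Its probe sets therefore do not share a direction with noggin. Map2, a microtubule protein of dendrites, lay below the floor at 2.96 untreated and 2.98 with noggin, and Fabp7, a fatty acid-binding protein of radial glia, at 2.36 untreated and 1.99 on both treated arrays.

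**Figure D2:**
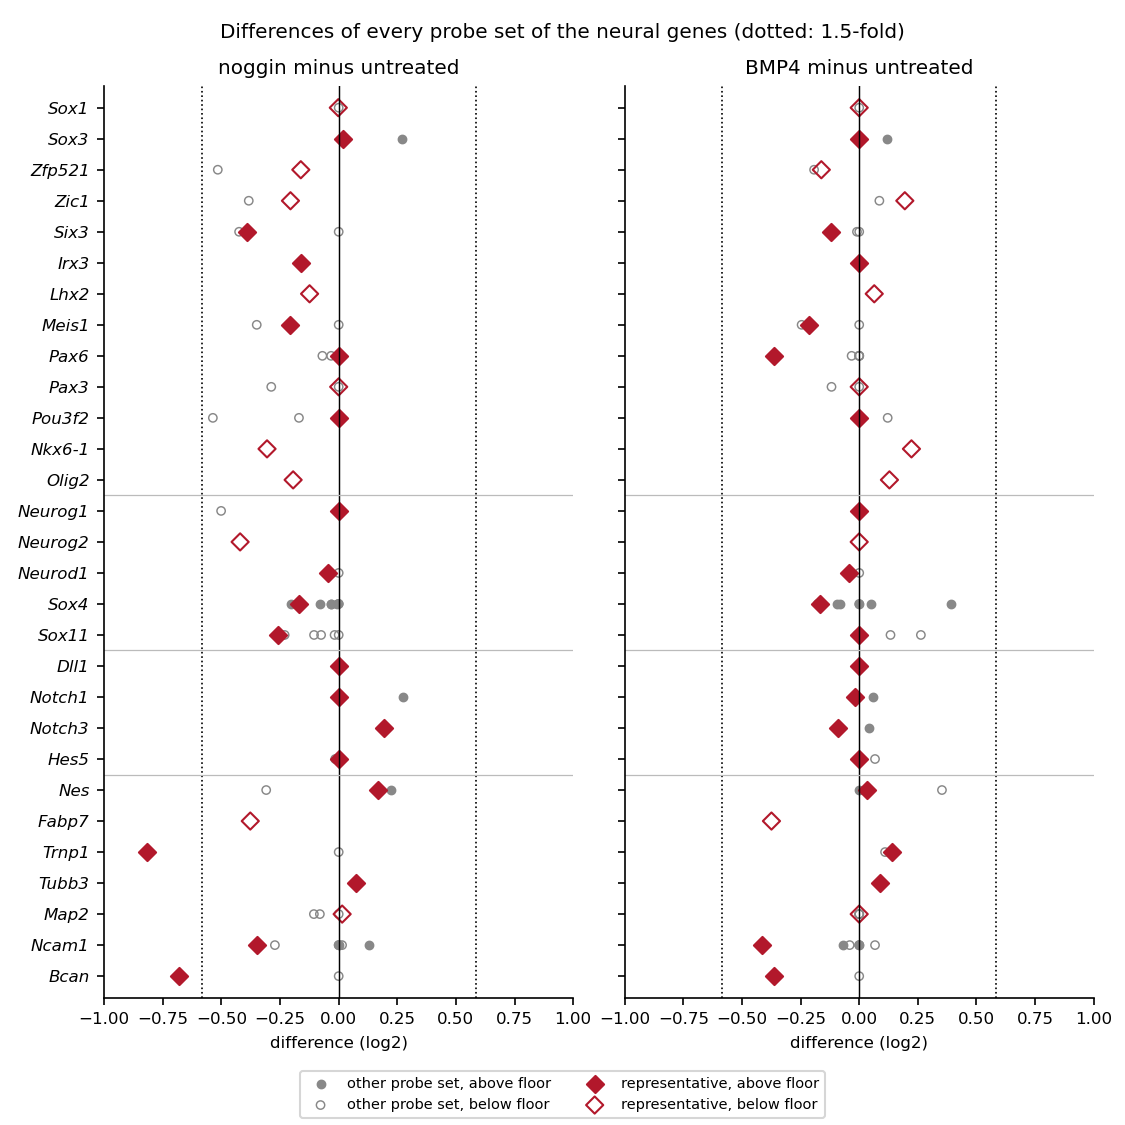
Difference from the untreated array (log2, horizontal axes) for every probe set of the 29 genes, with noggin on the left and BMP4 on the right. Diamonds are representative probe sets and circles the others, filled where above the floor; with noggin Trnp1 (−0.82) and Bcan (−0.68) pass the dotted 1.5-fold line, and with BMP4 no probe set does.

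Genes with several probe sets above the floor give a second reading of direction, a summary chosen after the values were seen. Of the 29 genes, 6 had at least 2 such probe sets. With noggin, all were above 0 in 3 of the 6, Nes, Notch3 and Sox3, against 6.05% of the 5139 genes with at least 2, and all were below 0 in 1, Sox4, against 12.8%. For BMP4 minus noggin, all were below 0 in 4 of the 6, Nes, Notch1, Notch3 and Sox3, against 7.92%. These background shares cover genes with any number of probe sets from 2 up. The number was 2 for Nes, Notch1, Notch3 and Sox3, 3 for Ncam1 and 6 for Sox4. All probe sets of a gene agree less readily the more there are, so the shares are not matched. Differences of any size were counted. With noggin a Sox3 probe set lay above 0 by only 0.02, inside the SD of 0.11 between probe sets of a gene. For BMP4 minus noggin a Sox3 and a Notch1 probe set gave −0.02 each, inside an SD of 0.16. A further Nes probe set, below the floor, gave −0.31 with noggin. The comparisons share the noggin array, so they are not separate evidence, and with 1 array each these are differences between RNA samples. Nes and the Notch receptors are also expressed by fibroblasts, which can be present as feeder cells. Of 9 annotated fibroblast markers, 5 passed the floor, against 63.7% of all genes. The summed log2 level of the 9 was 31.7 untreated, 30.9 with BMP4 and 31.9 with noggin. With noggin Thy1 differed by 0.18 and 3 of the 5 were equal, while Postn, at 3.32 untreated and 3.55 with noggin, passed the floor on the noggin array alone. Col1a1, Col3a1, Lum and Twist2 were below the floor on every array, with noggin differences of −0.04, −0.13, −0.06 and 0.00, and the part of such cells in the Nes and Notch3 values was not tested.

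The 10 genes below the floor were on balance lower on the noggin array. There 8 were below 0, 1 above and 1 equal, with a median of −0.18. Of all 6599 genes below the floor, 55.1% were below 0 and 7.83% above, with a median of −0.02. The lower the level, the larger that share was: 76.4% of genes with an untreated value up to 2 were below 0 with noggin, 59.3% of those from 2 to 2.5, and 36.4% of those from 3 to 3.44. Zic1 and Olig2, a dorsal factor and a factor of motor neuron and oligodendrocyte progenitors, had untreated values of 1.85 and 1.82 and noggin differences of −0.21 and −0.19. Nkx6-1, a ventral homeobox factor, and Lhx2, a LIM homeobox factor of forebrain, had noggin differences of −0.31 and −0.12, and Zfp521, a zinc finger factor of early neural differentiation, of −0.16. Sox1, among the earliest neuroectoderm factors, differed by −0.0016, and the dorsal factor Pax3 was equal. The part of the array's low end in these values was not tested. With BMP4 the same 10 gave 4 above 0, 2 below and 4 equal, against 21.5%, 20.8% and 57.7% of all genes below the floor.

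Just above the floor, between 3.44 and 4 untreated, lay 10 neural genes. With noggin 6 of these were below 0 and 0 above, against 34.9% below and 17.6% above of all 1098 genes in that range. With BMP4 5 were below 0 and 0 above, against 23.3% and 17.8%. Bcan and Six3 are among these 10 and passed the floor on the untreated array alone, where they were highest. The 9 neural genes with higher untreated values had 4 above 0, 3 below and 2 equal with noggin.

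**Figure D3:**
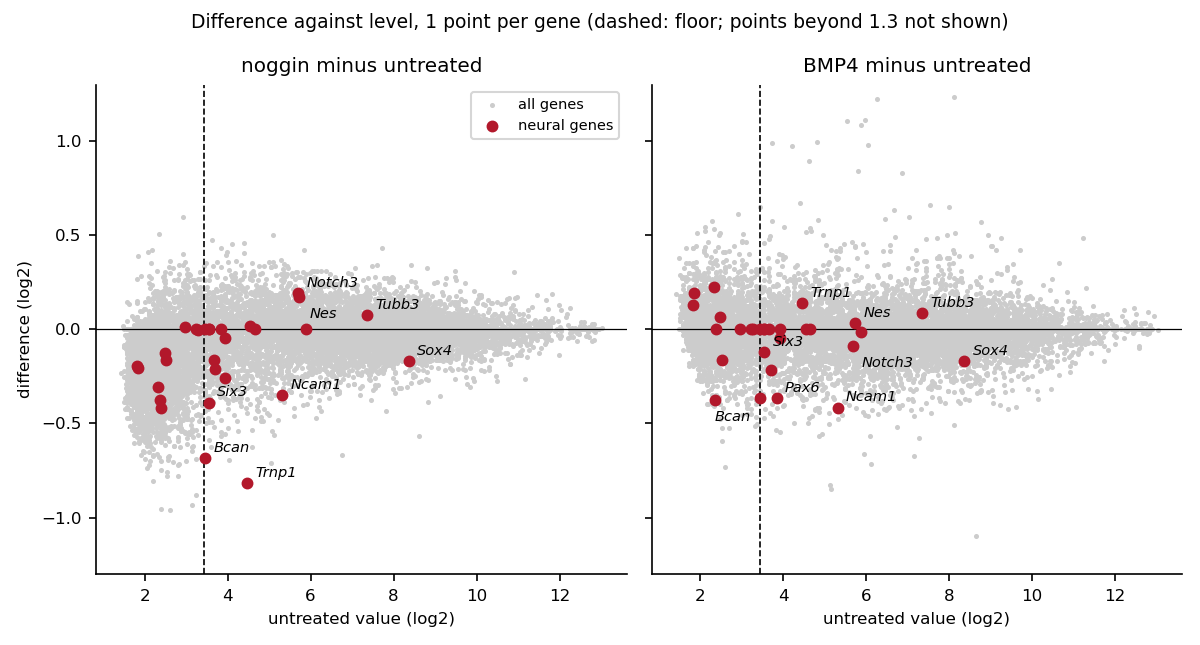
Difference from untreated (log2, vertical axes) against the untreated log2 value (horizontal axes) for all genes (grey) and the 29 neural genes (red), with noggin on the left and BMP4 on the right. The dashed line is the floor of 3.44; with noggin the grey cloud extends further below 0 left of that line, and Trnp1 is the lowest point to the right of it.

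With BMP4, 3 of the 19 measured neural genes were above 0, 9 below and 7 equal, with a median of 0.00. The mean over probe sets gave 5 above and 3 below among the 10 genes it kept. Loess gave 10 above and 9 below, again with exact zeros turned into small values. Of all measured genes, 24.8% were above 0 and 35.6% below. The mean difference was −0.081 for the 19 and −0.010 for all measured genes. None of the 19 reached 1.5-fold, against 0.224% of measured genes that were at least 1.5-fold higher and 0.0518% that were at least 1.5-fold lower. The largest differences were those of Ncam1 at −0.42, Pax6 and Bcan at −0.37 each, and, on the higher side, Trnp1 at 0.14. Bcan and Six3, among the 9 below 0, passed the floor on the untreated array alone, where they were highest. Of the 17 genes above the floor on all 3 arrays, 3 were above 0 and 7 below. The other Ncam1 probe sets above the floor gave −0.07 and 0.00. The other Pax6 probe sets, all below the floor, gave between −0.03 and 0.00. Between the BMP4 and untreated arrays Id2 differed by 4.10.

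Between the BMP4 and noggin arrays, the widest contrast of BMP signalling here, 6 of the 19 were above 0, 7 below and 6 equal, with a median of 0.00, or 6 above and 3 below of 10 with the mean over probe sets. The background was 33.1% above and 34.1% below. The mean difference was 0.057 for the 19, Trnp1 included, and 0.00086 for all measured genes. Trnp1 was the 1 gene past 1.5-fold, on the higher side, where 0.380% of measured genes lay, and 0 were 1.5-fold lower, against 0.138%. Bcan and Six3, 2 of the 6 above 0, were below the floor on both of these arrays. Of the genes above the floor on all arrays, the highest after Trnp1 was Sox11 at 0.26, and the lowest were Pax6 at −0.37 and Notch3 at −0.28.

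Further genes of neural development, in 5 lists, were read the same way, and their counts stand against the shares over all measured genes, 26.8% above and 36.1% below 0 with noggin and 24.8% and 35.6% with BMP4. In the Notch pathway list 14 of 18 genes were measured, with 4 above 0 and 6 below with noggin and 5 each with BMP4, and medians of 0.00. Hes1, a Notch target that BMPs are also known to induce, measured 6.69 untreated, 7.18 with BMP4 and 6.92 with noggin, so both treated arrays were higher. Rbpj, the DNA-binding effector, differed by 0.11 with noggin and −0.17 with BMP4. Jag1, a ligand, differed by −0.12 and −0.46, Notch2 by −0.13 and −0.11, the ubiquitin ligase gene Dtx1 by −0.09 and −0.38, and the ligand gene Dll3 by 0.00 and 0.16.

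Of the anterior neural plate and SoxB partner genes 9 of 16 were measured, with 2 above 0 and 6 below with noggin, and 3 and 4 with BMP4. Zic2, a zinc finger factor of neural plate and ES cells, measured 4.96 untreated, 5.46 with BMP4 and 4.79 with noggin. Hesx1, a repressor of the anterior plate, went the other way, at 4.46 untreated, 4.10 with BMP4 and 4.56 with noggin. Gbx2 differed by −0.20 on both treated arrays, En2 by 0.05 with noggin and 0.06 with BMP4, and Zic5 by −0.10 and 0.14.

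Proneural and neuronal genes had 9 of 16 measured, with 0 above 0 and 6 below with noggin (26.8% and 36.1% of all measured genes), a median of −0.06, and 2 above and 3 below with BMP4. Neurog3, a proneural factor of pancreas and brain, measured 3.84 untreated and 3.28 with noggin, below the floor, and differed by −0.57 with noggin and 0.36 with BMP4. The neurofilament gene Nefl measured 6.29, 5.91 and 6.08 in that order, lower on both treated arrays. Nefm differed by −0.09 on both, and Stmn2, a microtubule regulator of neurons, by −0.06 with noggin and 0.08 with BMP4.

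Neural crest and dorsal genes had 6 of 11 measured, with 1 above 0 and 3 below with noggin, and 2 each with BMP4. Foxd3, a crest factor that pluripotent cells also express, measured 5.96 untreated, 5.29 with BMP4 and 5.96 with noggin. It was the 1 measured gene of these lists past 1.5-fold against untreated. Of all measured genes, 0.0518% were at least 1.5-fold lower with BMP4. Ngfr, the p75 neurotrophin receptor, differed by 0.06 with noggin and 0.28 with BMP4, Msx1 by 0.00 and 0.13, Snai2 by −0.27 and −0.14, and Tfap2a by −0.16 and 0.00. Glial and radial glial genes had 6 of 12 measured, of which with noggin 5 were equal and 1, Vim at 0.02, was above 0. With BMP4, Vcan (versican) differed by −0.43, Aldh1l1 by −0.03 and Vim by 0.01.

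**Figure D4:**
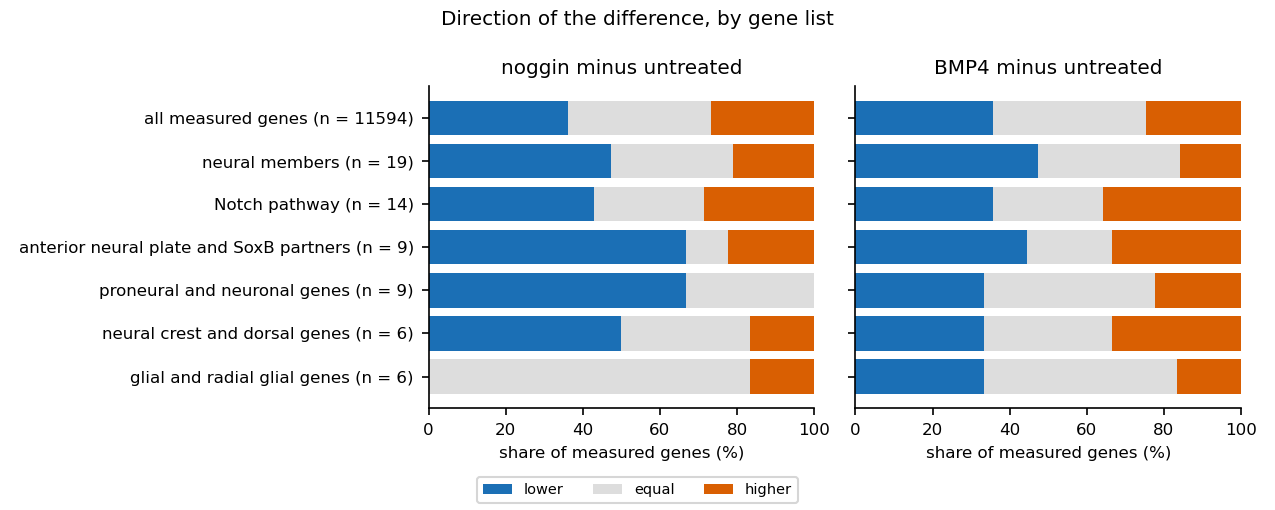
Share of measured genes (percent, horizontal axes) lower, exactly equal or higher than on the untreated array, with noggin on the left and BMP4 on the right, for all measured genes, the neural genes and 5 further lists. With noggin the proneural and neuronal list has no gene above 0 (6 of 9 below), and the glial list none below (5 of 6 equal).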

How the data were processed

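Total RNA of R1 cells was hybridised to 3 Affymetrix arrays, 1 a condition. The deposited table holds log2 values, which the authors made with RMA (per the submitters' processing notes), a method of background correction, quantile normalization and median polish of the probes. RMA's version, its settings and a genome build are not given in the sources used here. Nor is it stated whether the 3 arrays were normalized together, on which any comparison between them rests. Many values were exactly equal between arrays, for a cause that was not tested.

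The platform annotation paired 34945 probe sets with 1 gene, and all 29 neural genes matched their RefSeq symbols. A gene was represented by its probe set of highest mean over the 3 arrays, and was measured if its highest value lay above the median of all values (3.44). This left 11594 of 18193 genes. Differences were taken from the deposited log2 values with no further normalization (Python 3.11.15, pandas 2.3.3), and counts at 1.5-fold are set beside the same count over all measured genes. The computation was tested on simulated data. Alternatives were other floors, other ways of combining probe sets, centring, loess (span 0.3), other fold limits, and leaving out Trnp1 and Bcan. All neural genes were to be accounted for, with the 2 largest differences each way from each further list. Members and lists were chosen with earlier results of these data known.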

Additional observations from a re-analysis of the deposited data

How the results depend on the processing

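Each of 12 summaries (median, counts above and below 0, and count past 1.5-fold, in 3 comparisons) was recomputed under the alternatives: 68 of 114 values stayed close (a median with the same sign within the SD of probe sets of a gene, a count within 1.5 times), and 46 moved. Centring took off a median of 0 in all 3 comparisons, so its 12 values could not move and are among the 68. Counts were not scaled to the number of genes kept, so a setting that kept fewer or more could move them by that alone. A median of 0 was labelled moved once it took a sign, however small. In the order noggin minus untreated, BMP4 minus untreated, BMP4 minus noggin, the mean over probe sets (10 genes measured) gave medians of 0.014, 0.011 and 0.0084 and 4, 3 and 3 genes below 0, with 5 above 0 for noggin and 5 for BMP4, and 0 past 1.5-fold. Plain probe sets alone (16 genes) gave 5 and 5 below 0 in the first 2 and 1 past 1.5-fold with noggin. Counted singly, 30 probe sets gave 9 above and 14 below 0 with noggin, 8 above with BMP4, and 13 below and 2 past 1.5-fold for BMP4 minus noggin. With no floor (29 genes) noggin gave a median of −0.12 and 17 below 0, and 7 and 13 were above 0 in the other comparisons. The 75th percentile floor kept 2 genes, Sox4 and Tubb3, with medians of −0.047, −0.040 and 0.0069, 1 above 0 in each comparison, 1, 1 and 0 below, and 0 past 1.5-fold. Above the floor on all 3 arrays, 1 passed 1.5-fold with noggin. Loess gave medians of 0.00019, 0.00048 and −0.0072, 10 above 0 in the first 2 and 11 below in the last, since its curve turns exact zeros into small values. Without Trnp1 and Bcan 0 passed 1.5-fold, which was fixed in advance because no other gene had passed. At a size limit of 0.32 on the log2 scale 4, 3 and 2 passed, and at 2-fold 0. The low end of the noggin array limits what can be read of the 10 genes below the floor. No paired analysis was possible because each condition has 1 array.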
